A study of Sus scrofa with 2 samples.

Results

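The domains described here are 330 topologically associating domains (TADs, blocks of a chromosome whose DNA meets itself more often than the DNA around it) of 210 to 490 kb in pig spleen that held no listed chromatin loop. They were chosen by their length, by sharing no base with another listed domain, and by having no loop with both anchor midpoints inside the domain widened by 20 kb on each side. Of the 1927 listed domains, 1908 lay on chromosomes 1 to 18 and 1024 of these had such a length. Another 119 were set aside because they overlapped a neighbour, which left 905, of which 330 were without an inner loop and 575 had at least 1. The data were in situ Hi-C contacts, which record pairs of DNA fragments that were neighbours in the fixed nucleus, from spleen of pig (Sus scrofa) in 2 biological replicates of a single group. The labels name formaldehyde fixation and the enzyme DpnII, and no breed, age or sex. Both lists belong to the whole series, so no values per replicate were used here, and the errors below are the spread over 18 chromosomes.

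In a common model of folding, the ring-shaped cohesin complex draws out a growing loop of chromatin until it meets CTCF, a DNA-binding protein that stops it. A domain whose edges are held together in this way shows a focal spot of contacts at its corner, which a loop caller lists as a loop. Other domains stand out as blocks of contact without such a spot. A missing loop in the list can be a missing spot or a spot too faint to be listed at the depth of the data, which is unknown here, and these cannot be told apart.

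The domains without an inner loop made up 36.5% of the 905 (95% Wilson interval 33.4 to 39.7%, counting error only). Their share per chromosome was 36.7 ± 5.62% (SD, n = 18 chromosomes), from 26.4% on chromosome 9 (14 of 53) to 44.4% on chromosome 11 (8 of 18). The intervals of these 2 extremes, 16.4 to 39.6% and 24.6 to 66.3%, overlapped. Across the 18 chromosomes the share had a Pearson r of -0.18 (Spearman coefficient -0.19) with protein-coding genes per Mb and of -0.20 (Spearman coefficient -0.12) with loops per Mb, given as a description. Domains without a loop were of much the same length as the others, with medians of 275 and 270 kb and quartiles of 240 and 330 kb against 230 and 320 kb. The share without a loop was 32.9% at 210 to 240 kb (27.7 to 38.5%) and 46.1% at 400 to 490 kb (35.3 to 57.2%), where 35 of 76 domains were without. At the lower bound of the rule, 21 of 67 domains of 210 kb were without a loop, and just below it 29 of 98 domains of 200 kb. At the upper bound it was 1 of 3 domains of 490 kb, and 1 of 4 at 500 kb.

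**Figure D1:**
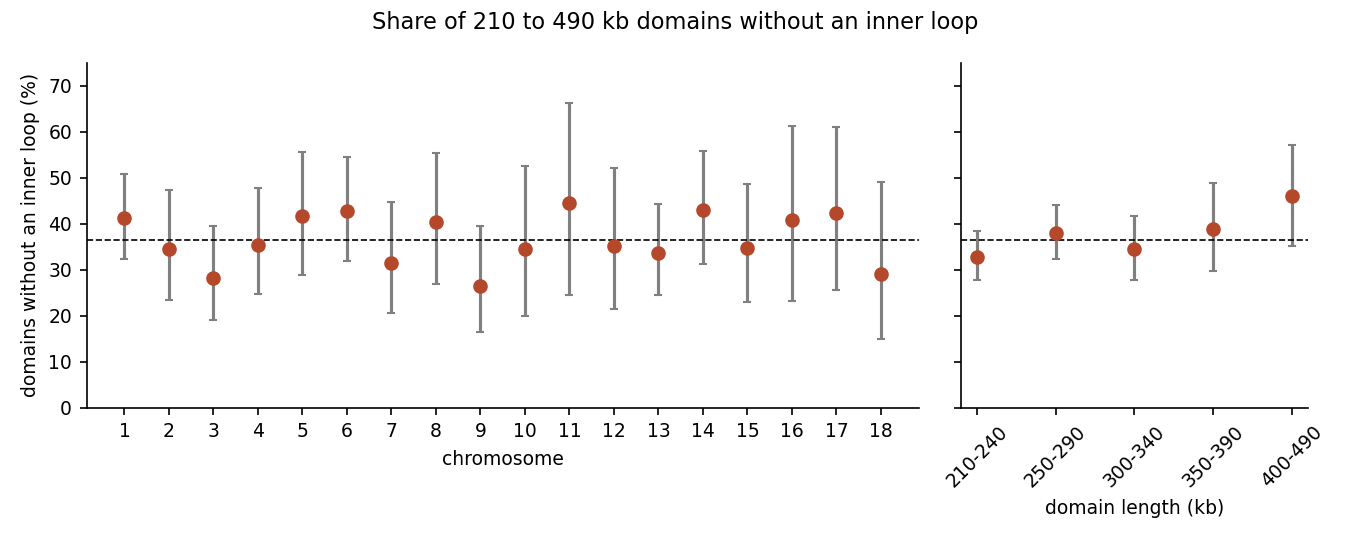
Percent of domains of 210 to 490 kb without an inner loop, by chromosome (left) and by domain length in kb (right); points are shares, bars are 95% Wilson intervals and the dashed line is the share over all 905 domains. Chromosome shares lie between 26.4 and 44.4%, with wide, overlapping intervals.

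Most of these domains needed a wide margin to take in a whole loop. The widening on each side that would have taken in a whole loop was 362.5 kb in the median domain (quartiles 218.75 and 731.25 kb), 22.5 kb at the least and 4757.5 kb at the most. It exceeds 20 kb by the rule and is set by the farther anchor, so it grows with the length of a loop that starts at an edge. A domain on chromosome 2 with 5 leaving loops still needed 107.5 kb. Only 8 of 330 needed 30 kb or less, 13 more needed up to 50 kb, and 57 (17.3%) needed over 1000 kb. In 298 of 330 (90.3%) no anchor midpoint of any loop lay inside the domain. On the other side of the rule, 54 of the 575 domains with a loop (9.39%) had theirs only through the 20 kb margin, by 17.5 kb at most. Of the 575, 240 (41.7%) had a single inner loop, 185 had 2 and 6 had 6, and in 198 (34.4%) a loop joined both edges. Of the 6 domains with 6 inner loops, the 3 longest held RUNX3, a lymphocyte factor, with CLIC4 (chromosome 6, 82340001 to 82810000), NCOA2, a nuclear receptor coactivator (chromosome 4, 64810001 to 65220000), and 8 genes including PPP1CC and VPS29 (chromosome 14, 31830001 to 32190000).

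**Figure D2:**
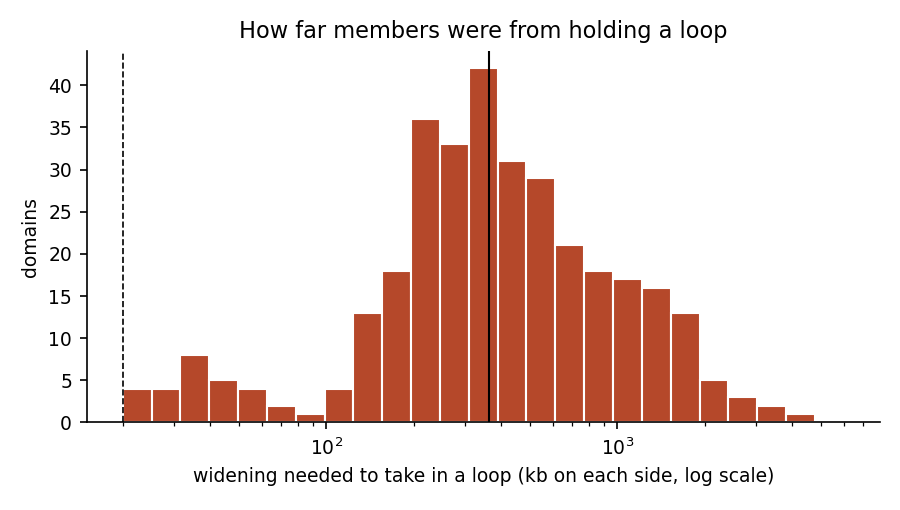
Widening in kb on each side (log scale) at which each of the 330 domains would take in a listed loop; bars count domains, the dashed line marks the 20 kb of the rule and the solid line the median of 362.5 kb. A small group lies between 22.5 and 100 kb, apart from the main body.

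The 4 domains nearest to a loop, each at 22.5 kb, show what that small group holds. The first, on chromosome 3 from 6030001 to 6290000, contains SMURF1, a ubiquitin ligase of the TGF-beta and BMP pathways, and KPNA7, of the importin alpha family. A loop of 275 kb there joined the left edge to the bin from 6300001 to 6325000, just past the right edge, with 67 observed contacts against 31.3 expected. On chromosome 1, from 273580001 to 273790000, the domain of RXRA, the nuclear receptor that pairs with many others, had a loop of 225 kb with 56 contacts against 23.1 expected. On chromosome 12 the domain from 35030001 to 35240000, with PPM1E, a protein phosphatase, lay just within a loop of 250 kb (82 contacts, 35.1 expected) whose anchors fell outside both edges. The fourth, on chromosome 13 from 199860001 to 200080000, holds CHAF1B, a subunit of chromatin assembly factor, with MORC3 and DOPEY2, and its nearest loop had its left anchor outside the domain. In 3 of the 4, then, a loop of about the domain's own length lay beside or around it and missed the rule by a few kb.

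Loops that left the domain were a minority. Of the 330 domains, 59 (17.9%, Wilson interval 14.1 to 22.4%) had a loop with 1 anchor inside the widened domain and the other outside, against 123 of 575 with an inner loop (21.4%, 18.2 to 24.9%). A loop spanned the whole widened domain in 22 (6.67%) and in 32 (5.57%). Neither kind was present in 255 of the 330 (77.3%, 72.5 to 81.5%) and in 429 of the 575 (74.6%, 70.9 to 78.0%). These counts come from the loop list that defined the groups and are given without a test. The 85 leaving loops had a median span of 425 kb (100 to 1850 kb), against 200 kb (100 to 450 kb) for the 1153 inner loops of the other domains. The rule bounds an inner loop by the length of its widened domain and sets no such bound on a leaving loop. The leaving loops had a median of 76 observed contacts and 2.33 times the expected number, against 113 contacts and 1.97 times for the inner loops. Span was not held constant between them. Counted once per domain, 71 of 86 leaving loops (82.6%) started within 20 kb of an edge, and the outer anchor lay in another listed domain in 13 (15.1%). A protein-coding gene end, meaning either annotated end of a gene, was in the inner anchor in 28 (32.6%) and in the outer anchor in 37 (43.0%).

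The domain with the most leaving loops from an edge was on chromosome 2, from 103350001 to 103680000. It contains ERAP1, ERAP2 and LNPEP, the related aminopeptidases that trim peptides for antigen presentation or act in endosomes. Of its 5 leaving loops, 4 started at its left edge, 2 to each side, with 66 to 109 observed contacts. On chromosome 4 the domain from 8110001 to 8370000 holds TG, the thyroid hormone precursor, which covered 81.4% of it, and SLA, an adaptor that dampens T cell receptor signalling. It had 3 such loops, 200 to 475 kb long. The domain of DAAM1, a formin that builds actin filaments, on chromosome 1 from 188320001 to 188580000 had 3 from its right edge, the strongest with 120 contacts against 43.9 expected. On chromosome 14 the domain from 124080001 to 124480000, with ADRB1, the cardiac beta adrenergic receptor, NHLRC2, DCLRE1A and PLEKHS1, had 3 loops of 425 and 450 kb that all ended near its right edge. The domain of RAB22A and VAPB, 2 proteins of membrane traffic, on chromosome 17 from 58430001 to 58680000 had 3, with 60 to 82 contacts.

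Loops were listed in the neighbourhood of both kinds of domain to a like extent. Within 1 Mb on each side, apart from inner loops, the domains without an inner loop had 3.34 ± 1.15 loops and the others 3.70 ± 1.19 (SD, n = 18 chromosome means). No such loop was listed around 57 (17.3%) and 104 (18.1%). The neighbouring loops had median observed contacts of 109 and 110 and median expected contacts of 52.5 and 54.7. The nearest other listed domain was 150 kb away in the median, against 110 kb. That nearest domain held a loop of its own for 183 of 330 (55.5%, 50.1 to 60.7%) and for 343 of 575 (59.7%, 55.6 to 63.6%).

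Genes were not part of the rule, so their placement could be tested. For each chromosome the mean over domains without a loop was set against the mean over domains with one, and the 18 differences were tested by a two-sided permutation test that flips their signs, with Benjamini-Hochberg adjustment over 8 measures. Genes came from a RefSeq table of Sscrofa11.1. The test takes the chromosomes as independent units and says nothing of the spread between animals.

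Fewer gene ends lay at the edges of the domains without a loop. An end of a protein-coding gene was within 20 kb of 53.4 ± 10.3% of their edges, against 64.4 ± 8.78% of the edges of domains with a loop (SD, n = 18 chromosomes). The shares ran from 32.4% (chromosome 7) to 73.3% (chromosome 6) without a loop, with a median of 52.3%, and from 50% (chromosome 11) to 84.1% (chromosome 12) with one, with a median of 63.6%. The 2 sets of chromosome values overlapped, and the share was lower without a loop on 15 chromosomes and higher on 2. The difference, -11.0 ± 12.3 percentage points (SD of the 18 differences), had a permutation p of 0.00093 (adjusted p = 0.00744). It was largest on chromosome 7, where it was 44.7 points. Both edges had a gene end in 32.1 ± 12.0% of domains without a loop and 42.6 ± 13% with one, a difference of -10.5 ± 15.5 points, lower on 12 of 18 chromosomes (permutation p = 0.00792, adjusted p = 0.0195). With the domains pooled, neither edge had a gene end in 77 of 330 (23.3%, Wilson interval 19.1 to 28.2%) and 76 of 575 (13.2%, 10.7 to 16.2%). The nearest gene end was 16.2 kb from an edge in the median without a loop and 12.8 kb with one.

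**Figure D3:**
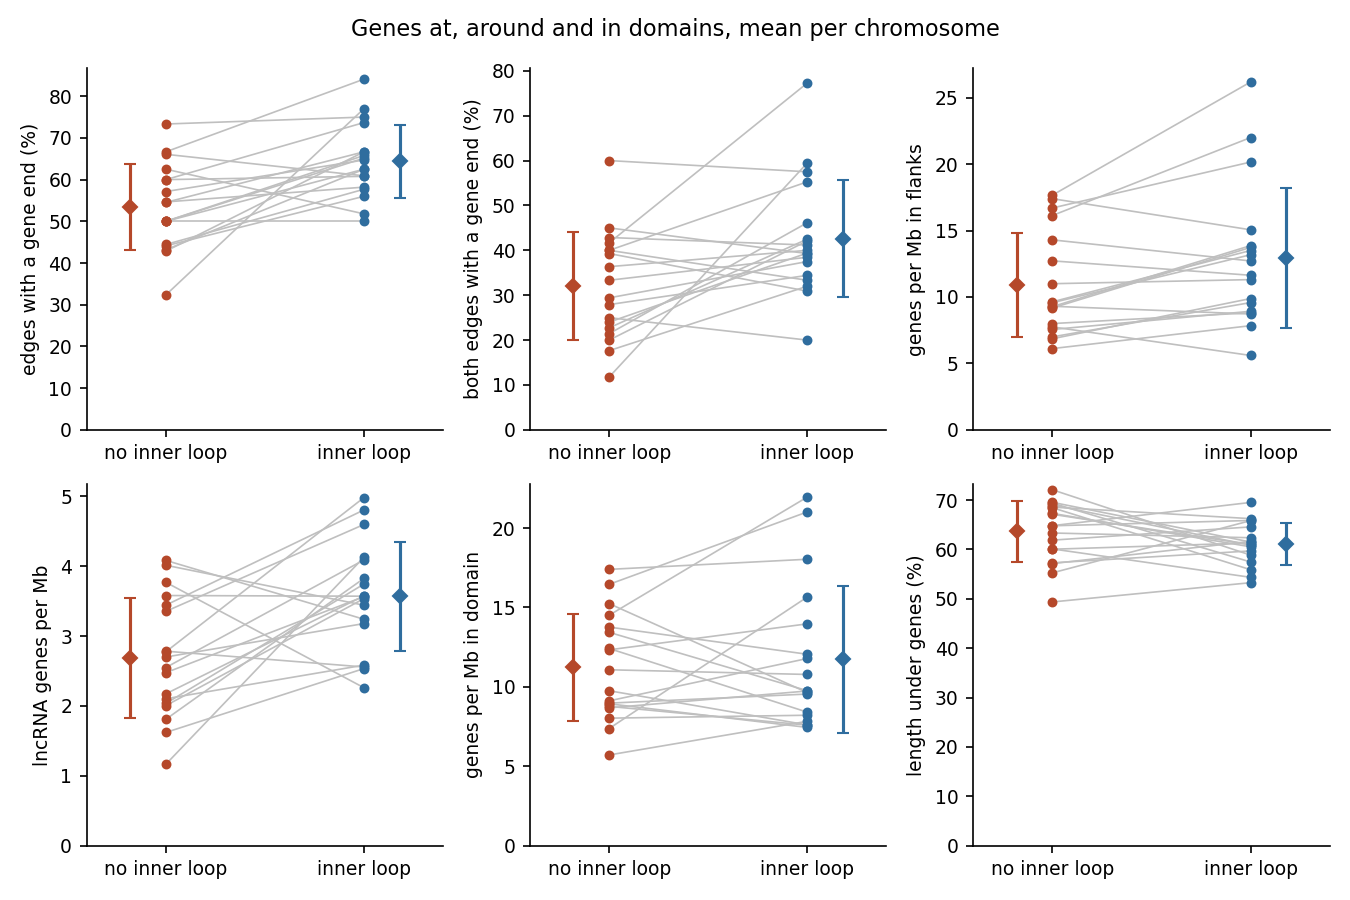
Mean per chromosome of 6 gene measures in domains without (red) and with (blue) an inner loop; grey lines join the values of a chromosome, and diamonds with bars are the mean and SD over 18 chromosomes. The chromosome values of the 2 kinds overlap in all 6 measures. Without a loop, gene ends at edges are lower on 15 of 18 chromosomes and gene ends at both edges on 12. Genes per Mb in the 250 kb flanks and lncRNA genes per Mb are each lower on 13. Genes per Mb inside are lower on 10 and the length under genes on 8.

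Within the loop-holding domains, edges with and without a loop anchor had overlapping shares of gene ends. Among their 1150 edges, a gene end was near 62.9% of the 653 with an anchor midpoint within 20 kb (59.2 to 66.6%) and near 67.0% of the 497 with none (62.8 to 71.0%). In the domains without an inner loop, 605 of 660 edges had no anchor near, and 54.5% of these had a gene end (50.6 to 58.5%). The other 55 edges had an anchor of a leaving loop or of one that ended beside the domain, and 58.2% had a gene end (45 to 70.3%). These 4 shares were compared by their intervals, which take edges as independent, and not by a test.

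By distance, the gene ends of both kinds of domain peaked near the edge. In the 20 kb centred on the edge there were 0.613 ± 0.263 gene ends per edge without a loop and 0.717 ± 0.255 with one (SD, n = 18 chromosomes). In the next 20 kb outward the means were 0.529 ± 0.199 and 0.732 ± 0.261. In the first 20 kb inward they were 0.510 and 0.612. Further inward the means lay closer together, at 0.514 and 0.504 at 40 kb, 0.392 and 0.387 at 80 kb, and 0.370 and 0.409 at 100 kb. Further outward the mean without a loop stayed the lower one in each bin out to 200 kb, by varying amounts. The outward means were 0.504 and 0.616 at 40 kb, 0.507 and 0.510 at 100 kb, 0.431 and 0.521 at 120 kb, and 0.389 and 0.448 at 200 kb. The difference was thus not confined to the edge. Of the bins named here, the profiles were farthest apart at 20 kb outside the edge, and no bin was tested on its own.

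**Figure D4:**
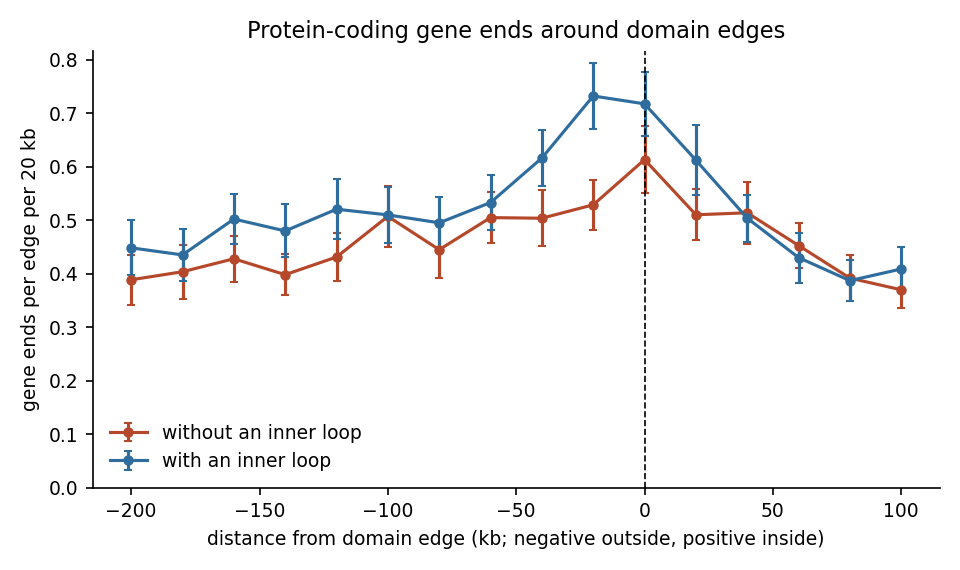
Ends of protein-coding genes per edge in bins of 20 kb, by distance in kb from the domain edge (negative outside, positive inside); points are means over 18 chromosomes and bars are standard errors. The profile with an inner loop (blue) rises to 0.732 at 20 kb outside the edge, where the one without (red) is at 0.529.

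In the 250 kb on each side, outside the domain, there were 10.9 ± 3.91 protein-coding genes per Mb around domains without a loop and 12.9 ± 5.27 around the others (SD, n = 18), a difference of -2.03 ± 2.97, lower on 13 chromosomes and higher on 5 (permutation p = 0.00977, adjusted p = 0.0195). The values ran from 6.12 (chromosome 8) to 17.7 (chromosome 12) and from 5.60 (chromosome 11) to 26.2 (chromosome 12), and overlapped widely. Genes of long non-coding RNAs (lncRNAs) inside the domain numbered 2.69 ± 0.857 per Mb without a loop and 3.57 ± 0.779 with one, a difference of -0.877 ± 1.16, lower on 13 of 18 chromosomes (permutation p = 0.00625, adjusted p = 0.0195). At least 1 lncRNA gene was present in 164 of 330 (49.7%) and 331 of 575 (57.6%).

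With only the 1715 loops of lower FDR, 531 domains had no inner loop and none of the 4 passed (permutation adjusted p = 0.0797 for edges, 0.155 for both edges, 0.0797 for flanks and 0.109 for lncRNAs). The flank difference also missed the threshold at 250 to 450 kb (permutation adjusted p = 0.115) and with overlapping domains kept (permutation adjusted p = 0.0578). A linear model over the 905 domains with length, chromosome and flank gene density was added after seeing the data. Its units were the domains, which are not replicates, whereas the permutation tests took chromosomes. In this model the edge difference was -7.34 points (SE 2.39) and still passed, and that for both edges was -6.39 points (SE 3.19) and did not.

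Inside the domains, no difference in protein-coding genes passed the test. There were 11.2 ± 3.35 genes per Mb without a loop and 11.7 ± 4.60 with one, a difference of -0.503 ± 3.67 (SD, n = 18; permutation adjusted p = 0.569). Genes covered 63.6 ± 6.08% and 61.2 ± 4.28% of the length (permutation adjusted p = 0.231). A single gene covered at least 50% of 34.0 ± 12.2% of domains without a loop and of 36.3 ± 9.20% with one (permutation adjusted p = 0.551). Domains with no base under a protein-coding gene made up 1.16 ± 2% and 0.399 ± 1.21% (permutation adjusted p = 0.312). The differences in the last 3 measures were 2.48 ± 6.87, -2.23 ± 12.7 and 0.761 ± 2.53 points (SD, n = 18). Together the 330 domains held 1061 protein-coding genes by midpoint, 5.67% of the 18722 on these chromosomes, and the 575 held 1941 (10.4%). The median was 2 genes per domain in both. No gene midpoint lay in 20 of 330 (6.06%) and 11 of 575 (1.91%), a count that was not tested, and the median gene was 27.8 and 23.9 kb long.

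The longest member, 490 kb on chromosome 3 from 56020001 to 56510000, holds TMEM131 and VWA3B. No gene end lay near either edge, and 1 loop of 625 kb (77 contacts, 37.7 expected) ended at its right edge. On the same chromosome, from 54030001 to 54510000, a domain of 480 kb was covered to 78.0% by AFF3, a nuclear protein first known from lymphoid tissue, and a loop of 700 kb left from its left edge, while another spanned the domain. On chromosome 2, from 14850001 to 15330000, 480 kb held 17 genes, among them SPI1, the PU.1 factor of myeloid and B cells, NR1H3, the LXR-alpha sterol receptor, CELF1, an RNA-binding protein, and MADD. Gene ends lay at both of its edges, 11 loops were listed within 1 Mb, and none touched it. A second domain of 480 kb on that chromosome, from 25600001 to 26080000, had CD44, the hyaluronan receptor, between SLC1A2, a glutamate transporter, and PDHX, a component of pyruvate dehydrogenase. On chromosome 6, from 157770001 to 158250000, SSBP3 shared 480 kb with ACOT11, MRPL37, CDCP2 and TCEANC2. The 480 kb on chromosome 17 from 25930001 to 26410000, with RRBP1, SNX5, DSTN, BANF2, BFSP1 and MGME1, had no loop within 1 Mb. The next were 450 kb each, with HIVEP1, a large zinc finger protein, and ADTRP on chromosome 7 (8160001 to 8610000), and FNDC3B and TMEM212 on chromosome 13 (110390001 to 110840000). These last were 2 of 4 members tied at 450 kb. Of the 8, 6 had no leaving and no spanning loop, close to the 77.3% of all members.

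The 6 members named for the most genes held 14 to 18, the last of them 1 of 3 tied at 14. None of the 6 had a leaving or spanning loop, as was so for 77.3% of all members. On chromosome 5, from 21140001 to 21440000, 18 genes in 300 kb included CDK2, a kinase of the cell cycle, CD63, a tetraspanin of endosomes, IKZF4, of the Ikaros family, PMEL, GDF11 and RPS26. On chromosome 13, from 65900001 to 66320000, another 18 included FANCD2 and OGG1, both of DNA repair, IL17RC and IL17RE, subunits of interleukin-17 receptors, and BRPF1. The shortest of the 6, 210 kb on chromosome 2 from 70000001 to 70210000, had 16, among them EPOR, the erythropoietin receptor, ACP5, ECSIT and ELAVL3. On chromosome 5, from 63590001 to 63840000, 15 genes included PTPN6, the SHP-1 phosphatase that restrains signalling in blood cells, C1R and C1S, proteases of complement, ENO2 and LPCAT3. On chromosome 1, from 268960001 to 269300000, there were 14, among them SPTAN1, a spectrin, SET, LRRC8A and NUP188. In all 6, gene ends lay near at least 1 edge.

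At the other extreme, 13 members (3.94%) lay whole inside 1 gene, as did 8 of the domains with a loop (1.39%). The longest of these members were 420 kb inside KLF12, a Krüppel-like repressor, on chromosome 11 from 46210001 to 46630000, and 400 kb inside TTC28 on chromosome 14 from 45360001 to 45760000. The others named by the rule were inside RORA, a nuclear receptor of lymphoid and cerebellar development, on chromosome 1 (111010001 to 111370000), ARHGAP24, a GTPase-activating protein, on chromosome 8 (132990001 to 133330000), PLXNA4, a semaphorin receptor, on chromosome 18 (16500001 to 16820000) and DNM3, a dynamin, on chromosome 9 (114480001 to 114780000). The DNM3 domain also held MIR199A-1 and MIR214. In these 6 the edges lay inside the gene and had no gene end near. Only the KLF12 domain had a leaving loop, of 575 kb with 70 contacts against 34.0 expected, and only that of TTC28 was spanned by one.

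The 5 members with no base under a protein-coding gene, chosen after their values were seen, lay on chromosomes 1, 3, 4, 5 and 14. Each had 1 or 2 lncRNA genes except that on chromosome 14, from 390001 to 630000, which had 0. The one on chromosome 5, from 38900001 to 39290000, had an end of PHLDA1 near its right edge and sent 3 loops of 1025 to 1250 kb to a single bin, from 40175001 to 40200000, with 24 to 30 contacts against 3.54 to 5.02 expected. Of 25 tRNA genes in members, 17 lay in 1 domain of 360 kb on chromosome 3, from 38750001 to 39110000, beside ZNF174, ZNF200, ZNF205, ZNF213, ZNF263 and ZNF597, of the zinc finger family. Such clustering was not particular to members, since 16 of 34 tRNA genes in domains with a loop also lay in 1 domain. Pseudogenes were as dense in members as in the other domains, at 0.859 and 0.849 per Mb.

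The 7 lists of immune genes each had 0 to 2 of their genes in domains without a loop. In 16 lists of genes, 504 of 538 entries matched a protein-coding gene. Of the genes of B cells (23 matched), T and NK cells (35), plasma cells (12), dendritic cells and antigen presentation (19) and the interferon response (33), 0 had their midpoint in a member. In domains of the same size with a loop there were 2, 7, 1, 7 and 5 (8.70, 20, 8.33, 36.8 and 15.2%). With 5.67% of all protein-coding genes in members, lists this short would hold few. Macrophage and monocyte genes were in members in 2 of 29 (6.90%), SPI1 and VCAM1, an adhesion molecule, against 6 with a loop (20.7%). Cytokines and receptors were in 1 of 44, CXCL8, a neutrophil attractant, against 9. These 7 lists together, joined after their counts were seen, held 195 genes, of which 3 (1.54%) lay in members and 37 (19%) in 28 domains with a loop. The same shares over all protein-coding genes were 5.67% and 10.4%. All lists and members were chosen with earlier results of these data known, so the gap between these shares is not independent evidence. The 37 were not independent: TAP1, TAP2, PSMB8 and PSMB9, which make peptides and carry them to class I molecules, shared 1 domain on chromosome 7. IFNAR1, IFNAR2, IFNGR2 and IL10RB, all receptor chains of interferons and related cytokines, shared 1 on chromosome 13, and the pairs CD28 and CTLA4, CD5 and CD6, and IL4R and IL21R shared 1 each. The lists of megakaryocytes and platelets (6.67% of genes in members) and of erythroid cells (6.25%) were not among the 7. No test was made on the lists, which are described by these counts alone. With the 1715 loops of lower FDR, 12 of the 195 lay in domains without a loop and 28 in domains with one, beside 9.26 and 6.77% of all protein-coding genes. With no 20 kb margin the numbers were 6 and 34, beside 6.27 and 9.76% of all.

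**Figure D5:**
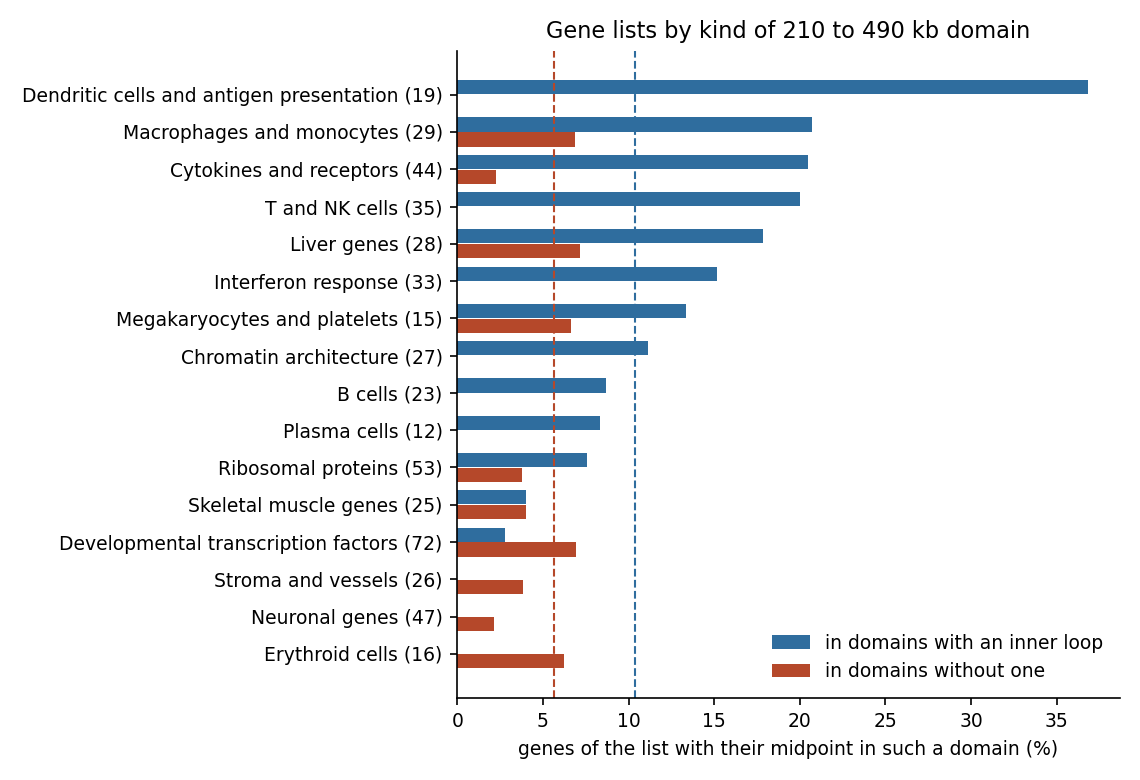
Percent of the matched genes of each list (number in brackets) whose midpoint lies in a domain of 210 to 490 kb without (red) or with (blue) an inner loop; dashed lines give the same shares over all protein-coding genes, 5.67 and 10.4%. Lists of dendritic, T and NK, B and plasma cells, of the interferon response and of chromatin architecture have no red bar.

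Developmental transcription factors, the longest list, had 5 of 72 genes in members (6.94%, beside 5.67% of all protein-coding genes) and 2 in domains with a loop (2.78%, beside 10.4%). On chromosome 12, from 24530001 to 24860000, a member held HOXB1, HOXB2, HOXB3, HOXB5 and HOXB6, of a cluster that patterns the body axis, with ends of HOXB7 and HOXB8 near its right edge. It had no leaving and no spanning loop. MEIS2, a HOX cofactor, covered 89.7% of a member on chromosome 1 from 133990001 to 134220000. RUNX2, the bone factor, was the single gene by midpoint of a member on chromosome 7 from 40200001 to 40510000, and SOX10, of the neural crest, was 1 of 13 genes of a member on chromosome 5 from 9880001 to 10180000.

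The remaining lists had 0 to 2 genes each in members. Over all protein-coding genes 5.67% lay in members and 10.4% in domains with a loop, so lists this short would hold few. CXCL8 and PPBP, the platelet basic protein, shared a member on chromosome 8 from 69840001 to 70150000 with AMCF-II, another chemokine, and needed 477.5 kb of widening to take in a loop. VCAM1 was in a domain only 27.5 kb of widening short of a loop. EPOR was the single erythroid gene (of 16) and CDH5, the cadherin of vessel walls, the single gene of stroma and vessels (of 26), with 0 of either list in domains with a loop. TTR and APOH stood for the liver (2 of 28, against 5), MYOG for skeletal muscle (1 of 25, against 1), and SYN2 for neurons (1 of 47, against 0), the last beside PPARG, the receptor of fat cell development. RPL14 and RPS6 stood for ribosomal proteins (2 of 53, against 4), each over 1000 kb of widening from a loop. None of 27 genes of chromatin architecture was in a member, and 3 (11.1%) were in domains with a loop, near the share of all genes.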

How the data were processed

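The domain table deposited by the authors lists starts and ends in steps of 10 kb. No label or header names its caller. The list of loops carries the mark of juicer_tools 1.9.9, per the file headers. The submitters' processing notes name HiC-Pro 3.1.0. Observed contacts are whole counts per loop pixel, not normalized, per the file headers. Expected contacts are a signal from the donut around the pixel, per the file headers. The largest of the 4 deposited q-values per loop served as its FDR, and the lower-FDR loops were those at or below its median. No label or header states how replicates were pooled or which genome build was used. The last deposited feature of each chromosome lay at -2995 to 160 kb from the last gene of the Sscrofa11.1 table. Coordinates are those of the deposited lists, counted from 1.

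Domain and loop membership, gene counts by midpoint and edge windows of 20 kb were computed with Python 3.11.15, numpy 2.4.6 and pandas 2.3.3. The test used 100000 draws over chromosomes with at least 3 domains of each kind, which all 18 were, at a threshold of 0.05, and was tested on simulated data. The linear models (statsmodels 0.14.6) used robust errors. Wilson intervals are at 95%. Domains named were the 8 longest members, the 6 with the most genes, the 6 most covered by 1 gene (ties by length), the 5 with the most loops leaving from an edge and the 4 nearest to a loop, with up to 4 genes per list. The 3 comparison domains were the longest of 6 tied at the most inner loops. Other ties were settled by chromosome and start. Members and lists were chosen with earlier results of these data known. GC content and promoter sequences were not analysed here. Some genes inside members are not reported here.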

Additional observations from a re-analysis of the deposited data

How the results depend on the processing

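The differences in gene ends at edges, gene ends at both edges, flank gene density and lncRNA density kept their sign under each alternative run. With loops of lower FDR none of the 4 passed the threshold, at -6.65 points, -6.50 points, -2.07 genes per Mb and -0.611 lncRNA genes per Mb (permutation adjusted p = 0.0797, 0.155, 0.0797 and 0.109). The flank difference was no smaller there than in the main run (-2.03 genes per Mb). The difference for both edges also missed the threshold with a 10 kb edge window (-7.52, permutation adjusted p = 0.0689) and in the linear model with flank gene density (-6.39), a model chosen after seeing the data. Flank density missed it at 250 to 450 kb (-2.01, permutation adjusted p = 0.115) and with overlapping domains kept (-1.56, permutation adjusted p = 0.0578). Leaving out each chromosome in turn changed no call, and the edge difference ran from -12.2 to -8.98. Single-gene domains, never past the threshold, turned to 0.341 with no margin around the domain and to 1.26 with loops of lower FDR, and the difference in domains without a gene was 0 with all annotated genes. Loops of lower FDR gave 531 members in place of 330. Of 195 immune-list genes, 6 lay in members with no margin and 12 with loops of lower FDR, in place of 3. The share of all protein-coding genes in members moved as well, to 6.27% and 9.26%, in place of 5.67%. The cause of these changes was not tested, beyond fewer loops giving more members. No values per replicate were used here, so no replicate was left out, and no paired analysis was possible because both samples belong to 1 group. GC content was not run.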
